A study of Mus musculus with 12 samples.

Results

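Extracellular vesicles (EVs) from cells that overexpress CRIPTO were given to 3T3 cells, a mouse fibroblast cell line, and the RNA of the treated cells was compared with that of untreated cells. The comparison holds 6 of the 12 libraries of the study, 3 from untreated cells and 3 from cells kept with the EVs for 24 h, and covers every gene that passed a filter on low counts, 14279 of 32544 rows. The donors were human breast cancer cells of the line MDA-MB-468 made to overexpress CRIPTO (CrOE). The untreated fibroblasts received no EVs. The other groups, of 3 libraries each, received EVs from an MDA-MB-468 line that is the control of a CRIPTO knockdown (shCon) or from the knockdown line (shCr), and shCon EVs are used here as the second reference. The sources used here do not give the EV dose, whether the overexpressing line is 1 clone, whether untreated cells received a vehicle, or whether the libraries of a group come from separate cultures. The shCon line is the control for the knockdown, so a control made with the overexpression vector was not analysed here. P-values measure the spread between these libraries, which may be technical.

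CRIPTO is a membrane-anchored co-receptor of the EGF-CFC family that helps Nodal signal through activin receptors, and it can leave cells on EVs, membrane-bound particles that carry protein and RNA to other cells. Much of the response described here concerns the endoplasmic reticulum (ER), where secreted proteins such as collagens are folded. When misfolded protein builds up there, the unfolded protein response (UPR) starts from the sensors IRE1 (gene Ern1), PERK (Eif2ak3) and ATF6. IRE1 splices the mRNA of the transcription factor XBP1, ATF6 becomes a transcription factor after cleavage, and both raise genes of folding and of disposal of misfolded protein. PERK, like other kinases of eIF2alpha, slows translation and raises the factor ATF4, which drives genes of amino acid uptake, tRNA charging and feedback, the integrated stress response. Fibroblasts are the main makers of extracellular matrix, and they respond to interferon, growth factors and TGF-beta.

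Totals were 25960054 to 27189953 estimated counts in the untreated libraries and 31389839 to 35490290 in the CrOE EV libraries. Mitochondrially encoded genes took 0.495% to 1.64% and 0.693% to 1.44% of them, and the 10 most abundant genes took 4.76% to 4.87% and 6.66% to 6.75%. Libraries of 1 group differed by more than counting error, with chi-square over degrees of freedom of 7.54 to 31.2, so none was a copy of another. Levels are given as CPM, a gene's counts brought to 1 common total per library with a TMM factor, and are not corrected for gene length, so they compare libraries and not genes. CPM and fold changes are relative to the other genes of a library, so a change in total RNA per cell cannot be seen. Whether strand was used in counting is not given in the sources used here, so genes whose exons overlap a gene on the opposite strand, by GENCODE M21, have uncertain counts, as do genes that share over 20% of their 31-base stretches with other genes. Such genes are marked where they are first described. Tdgf1, the mouse gene of CRIPTO, had 1, 3 and 2 counts in the untreated libraries and 0 in each CrOE EV library. Both groups were at or under the detection floor, set at 3 counts per library, and no difference was detectable. The human CRIPTO transcript was not analysed here, so the overexpression has no check in these data. Columns named only after CRIPTO were taken as the CrOE libraries by elimination, and every direction below rests on that step.

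Of the 14279 genes tested, 10524 (73.7%) were called, that is, had a Benjamini-Hochberg adjusted p under 0.05 by edgeR's quasi-likelihood test. Called higher after CrOE EVs were 5242 genes (36.7% of those tested) and called lower 5282 (37.0%). The falls were larger than the rises. The median log2 fold change of the genes called higher was 0.69 and that of the genes called lower was -1.01. At least a 2-fold change came with 4245 calls (29.7%), of which 1576 were higher (11.0%) and 2669 lower (18.7%). At least a 4-fold change was seen for 404 genes called higher and 1234 called lower, and at least a 32-fold change for 66 and 138. CPM values of the groups did not overlap for 11089 genes (77.7%).

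**Figure D1:**
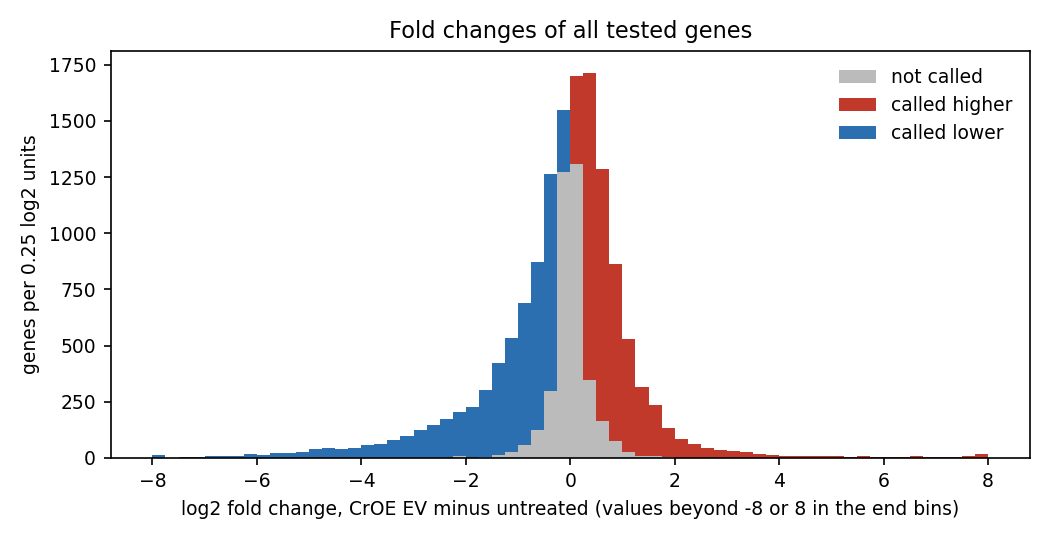
Number of tested genes by log2 fold change of CrOE EV libraries minus untreated libraries, in bins of 0.25 log2 units, with 5242 genes called higher in red, 5282 called lower in blue and 3755 not called in grey. Falls outnumber rises at moderate sizes, while the end bins, which also hold the values beyond -8 and 8, have 13 genes on the left and 19 on the right.

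Abundant transcripts took part. Genes called higher with at least a 2-fold change held 5.11% ± 0.069 of the counts in untreated libraries and 17.2% ± 0.093 after CrOE EVs (SD, n = 3). Genes called lower with at least a 2-fold change held 22.8% ± 0.26 and 6.41% ± 0.12. Summed over all genes, 24.55% of the counts moved from one set of genes to another. Of the 81 genes with at least 1000 CPM in untreated cells, 27 were called lower and 2 higher with at least a 2-fold change. Choosing genes by their level in one group favours changes away from it, and of the 85 genes with at least 1000 CPM after CrOE EVs, 19 were called higher and 7 lower with at least a 2-fold change. At the other end, 51 genes with at least 1 CPM in untreated cells were at the floor after CrOE EVs, and 32 genes were at the floor in untreated cells and reached at least 1 CPM after CrOE EVs. In bulk RNA, fewer cells that express a gene and less RNA of it per cell cannot be told apart.

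The 10 largest log2 rises among genes of at least moderate level were chosen by a rule. They include Hspa5, Hyou1 and Sdf2l1, chaperone genes of the ER. Atp2a3, which encodes the ER calcium pump SERCA3, stood at 0.11, 0.0381 and 0.184 CPM in the untreated libraries and at 27.2, 27.5 and 28.5 CPM after CrOE EVs (log2 fold change 7.91, SE 0.2, adjusted p = 1.8e-12, edgeR). Avil, whose product advillin binds actin, rose from 0.708 ± 0.15 to 31.8 ± 1.76 CPM (SD, n = 3, log2 fold change 5.49). Ppef1, a phosphatase with calcium-binding EF hands, rose from 2.02 ± 0.163 to 49.2 ± 3.61 CPM, and Angptl6, a secreted angiopoietin-like protein, from 1.75 ± 0.409 to 35.3 ± 1.38 CPM. Stbd1, a glycogen-binding protein, rose from 1.82 ± 0.507 to 32.3 ± 1.92 CPM (log2 fold change 4.15). Groups that do not overlap were a condition of the choice, and 77.7% of all tested genes had them. Car6, a secreted carbonic anhydrase, was at the floor in untreated cells and at 55.2, 60.6 and 51.6 CPM after CrOE EVs. Sspo, the gene of the large secreted protein SCO-spondin, rose with a log2 fold change of 7.04. Exons of Avil and Angptl6 overlap a gene on the opposite strand.

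Among the 10 largest log2 falls most genes encode secreted or matrix proteins. Hp, the haemoglobin-binding plasma protein haptoglobin, stood at 184, 209 and 159 CPM in the untreated libraries and at 0.571, 0.64 and 0.758 CPM after CrOE EVs (log2 fold change -8.11, SE 0.15, adjusted p = 2.1e-13, edgeR). Sfrp1, a secreted Wnt antagonist, stood at 137, 137 and 139 CPM and at 1.30, 1.08 and 1.12 CPM (log2 fold change -6.88). Agt, the precursor of angiotensin, fell from 25.7 ± 6.05 to 0.148 ± 0.00938 CPM (SD, n = 3), and Serping1, the inhibitor of complement C1, from 16.4 ± 1.08 to 0.16 ± 0.0563 CPM. Col23a1, a transmembrane collagen, had a log2 fold change of -6.86, Sned1, a matrix protein, -6.51, and Gstt1, a glutathione transferase, -6.58. The falls, like the rises, were chosen only among calls whose groups did not overlap. Islr, a membrane protein of mesenchymal cells, had 550, 488 and 538 counts in the untreated libraries and 1, 2 and 3 after CrOE EVs, and was at least 219.5-fold lower at the floor. Prelp, a small leucine-rich matrix protein, and Gdpd2, a phosphodiesterase, completed the set. Exons of Sned1, Prelp and Gdpd2 overlap a gene on the opposite strand.

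By absolute rise in CPM, 8 genes led, Hspa5, Hsp90b1, Calr, Hyou1, Pdia4 and Pdia3 of the ER folding system, Slc3a2 of amino acid transport and the translation elongation factor gene Eef1a1. Eef1a1 stood at 11480, 11050 and 10740 CPM in the untreated libraries and at 14590, 15080 and 14250 CPM after CrOE EVs (log2 fold change 0.40, adjusted p = 0.00015, edgeR). The 8 largest falls in CPM were Col1a1, Thbs2, Col1a2, Thbs1, Bgn, Aebp1, Actb and Nid1. All but Actb, the gene of beta-actin, encode collagens or other proteins of the matrix. Actb fell from 3113 ± 25.3 to 1330 ± 43.2 CPM (SD, n = 3), and Nid1, the basement membrane protein nidogen, from 2029 ± 29.6 to 358 ± 0.272 CPM (log2 fold change -2.50). Relative to shCon EVs the log2 fold changes of Actb and Nid1 were -0.45 and -2.355. Aebp1, a secreted protein that binds collagen, stood at 2191, 2684 and 2357 CPM and at 525, 574 and 600 CPM. The 8 rises and the 8 falls were taken only from calls whose groups did not overlap. Exons of Hsp90b1, Pdia3, Thbs1 and Nid1 overlap a gene on the opposite strand. Eef1a1 and Actb share over 20% of their 31-base stretches with other genes.

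Genes were then read by 35 hand-written lists of pathways and families. For 9 of them at least 70% of the tested members were called higher, against 36.7% over all genes, and for 19 at least 60% were called lower, against 37.0%. A list is described by its counts and its median log2 fold change, beside the median of 0.0078 over all genes tested.

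**Figure D2:**
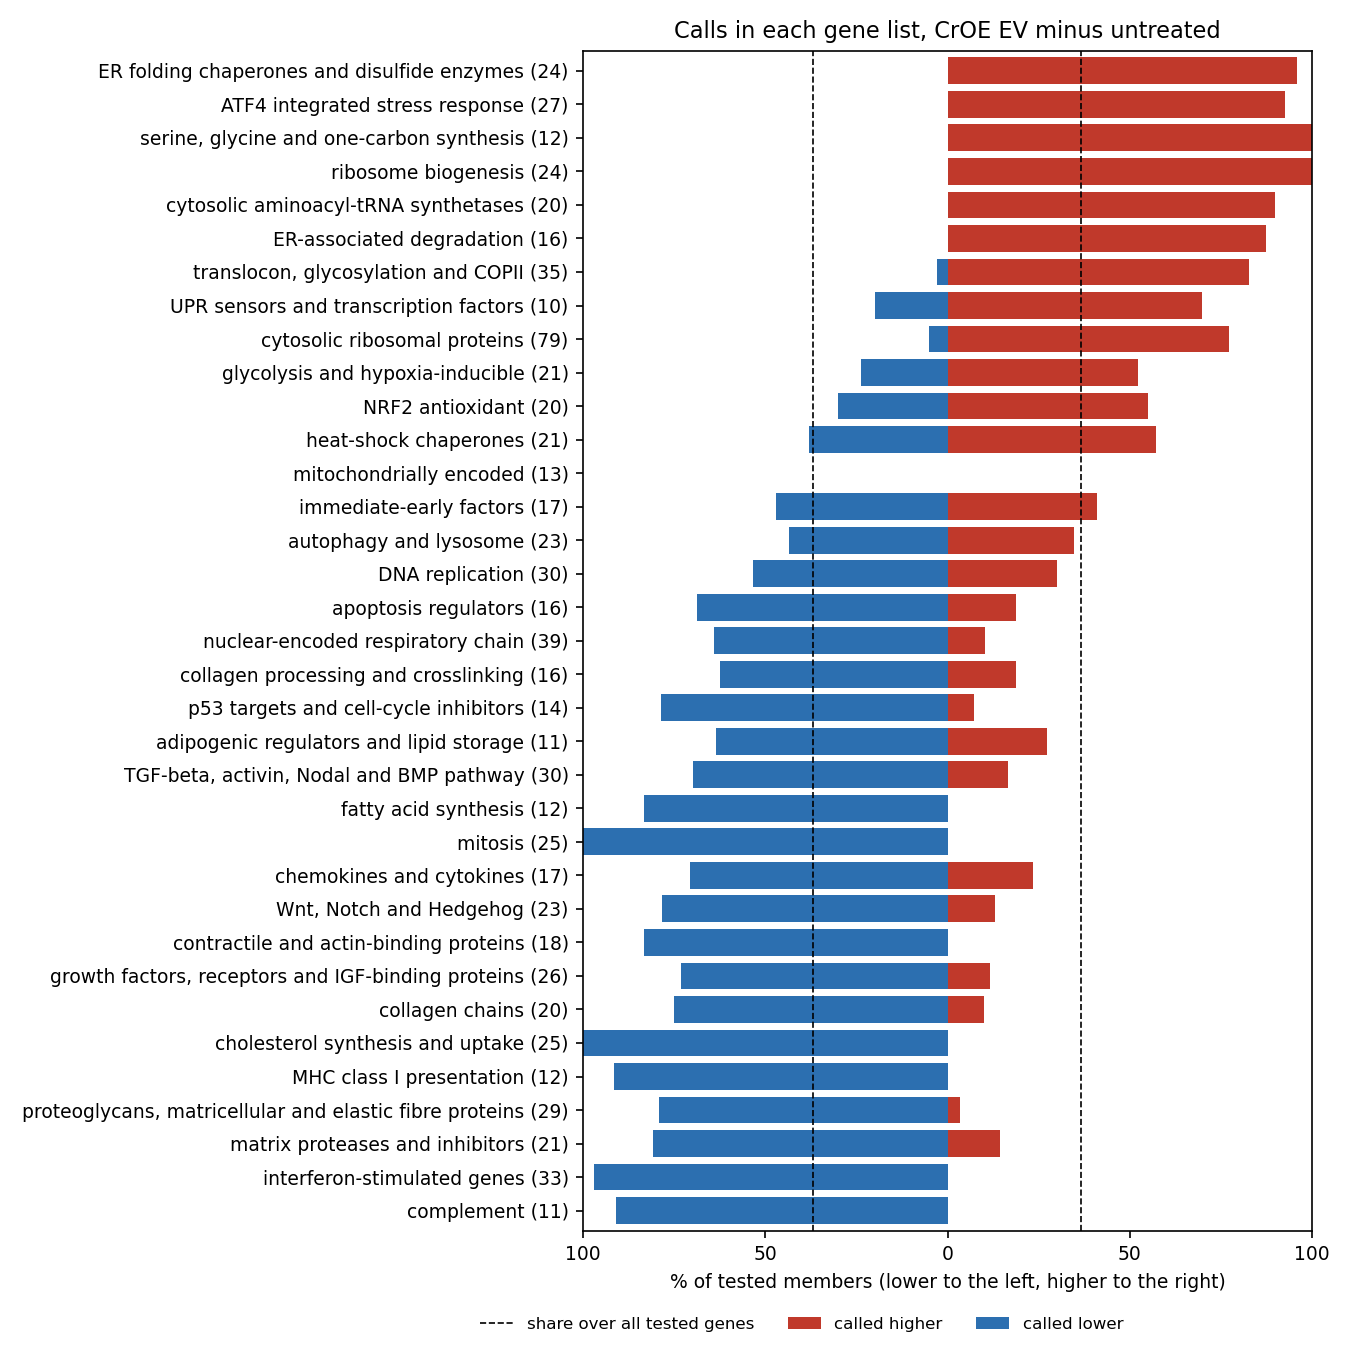
Share of tested members called higher (red, to the right) and called lower (blue, to the left) after CrOE EVs in each of 35 gene lists, with the number tested in parentheses and the lists ordered by median log2 fold change. Dashed lines mark the shares over all tested genes, 36.7% higher and 37.0% lower.

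The folding machinery of the ER rose as a block. Of 24 chaperones and disulfide enzymes of the ER, all tested, 23 were called higher, 0 lower and only Sil1 was not called, with a median log2 fold change of 2.26. Together they took 0.737% of the counts in untreated cells and 4.40% after CrOE EVs. Hspa5, the gene of the central ER chaperone BiP, stood at 674, 652 and 647 CPM in the untreated libraries and at 11700, 12090 and 11400 CPM after CrOE EVs. The CrOE EV libraries differed among themselves by far less than from the untreated ones. The rise was 17.8-fold (log2 fold change 4.16, SE 0.075, adjusted p = 1.5e-13, edgeR). Hsp90b1, which encodes the ER form of the HSP90 chaperone, stood at 762, 719 and 733 CPM and at 7329, 7766 and 7397 CPM. Hyou1, a nucleotide exchange factor of BiP, stood at 134, 136 and 138 CPM and at 3055, 3172 and 3032 CPM, and Sdf2l1, a cofactor that works with it, at 16.5, 15.9 and 16.0 CPM and at 372, 400.1 and 373 CPM. In all of these the lowest CrOE EV library was many times the highest untreated one.

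The other folding genes moved the same way by different amounts. The lectin chaperone gene Calr had a log2 fold change of 1.91, the protein disulfide isomerases Pdia4 and Pdia3 3.59 and 2.02, and the J-domain co-chaperone Dnajb9 3.47. Manf, a secreted stress factor, stood at 77.7, 70.3 and 76.0 CPM in the untreated libraries and at 974, 1024 and 954 CPM after CrOE EVs. Xbp1, the target of IRE1, stood at 55.5, 61.0 and 51.5 CPM and at 184, 181 and 189.5 CPM (log2 fold change 1.72, adjusted p = 8.4e-11, edgeR). Splicing of that mRNA cannot be read from counts per gene. The sensor genes Ern1, Eif2ak3 and Atf6 were higher too, with log2 fold changes of 1.93, 0.95 and 1.97. Of the 10 sensors and factors of the UPR tested, 7 were called higher and 2 lower, the latter being Creb3l1 (log2 fold change -0.84), a factor that acts on collagen genes, and Mbtps1 (-0.46), the protease that makes the first cut in ATF6. Exons of Dnajb9, Manf and Eif2ak3 overlap a gene on the opposite strand.

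Disposal of misfolded protein and the secretory route moved in the same direction. Of 16 genes of ER-associated degradation 14 were called higher, 0 lower and Erlec1 and Faf2 not (median log2 fold change 1.10). Herpud1, which organises the degradation complex, stood at 75.7, 73.9 and 68.5 CPM in the untreated libraries and at 789.8, 804 and 791 CPM after CrOE EVs, with no overlap. Sel1l and Syvn1, partners in the ubiquitin ligase that clears ER proteins, had log2 fold changes of 2.88 and 2.42, and Edem1, which marks glycoproteins for disposal, 2.20. Of 35 genes of the translocon, glycosylation and COPII vesicles 29 were called higher and 1, Kdelr1, lower (median 0.80). Their share of counts was 0.548% in untreated cells and 1.03% after CrOE EVs. Rpn1, a subunit of the glycosylation enzyme, had a log2 fold change of 1.74, and Sec61a1, the pore of the translocon, 1.50. Relative to shCon EVs, which share the CrOE libraries as the other side of the comparison, 23 of the 24 folding genes and 13 of the 16 degradation genes were called higher by edgeR. In that comparison 72.6% of all tested genes were called, 36.5% higher and 36.1% lower. Exons of Syvn1, Rpn1 and Sec61a1 overlap a gene on the opposite strand.

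The promoters of the folding genes are shown because ATF6 and XBP1 are known to act through the ER stress response element, which reads CCAAT, then 9 bases of any kind, then CCACG. Promoter sequences, from RefSeq on GRCm38.p6, cover 250 bases before the gene start, and both strands were searched. A match was present for 8 of the 21 folding genes with a promoter entry (Hspa5, Hsp90b1, Calr, Canx, Pdia6, Dnajc3, Creld2 and Ero1lb) and for 2 of the 12 degradation genes (Syvn1 and Derl3). Over all 32851 promoters 0.113% held one, and over the 10225 tested genes with an entry 0.176% did. Capitals mark the match, in its reverse complement where it lies on the other strand. The windows run in the direction of transcription and lie at chr2:34772005-34772084 on the + strand for Hspa5, at chr10:86705528-86705676 on the - strand for Hsp90b1, and at chr15:88819500-88819579 on the + strand for Creld2. Hsp90b1 holds 2 matches that do not overlap.
Hspa5: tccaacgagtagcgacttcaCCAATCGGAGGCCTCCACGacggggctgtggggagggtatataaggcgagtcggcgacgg
Hsp90b1: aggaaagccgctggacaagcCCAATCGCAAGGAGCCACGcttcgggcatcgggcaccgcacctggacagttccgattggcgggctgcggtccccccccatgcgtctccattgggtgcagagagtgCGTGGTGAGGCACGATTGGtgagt
Creld2: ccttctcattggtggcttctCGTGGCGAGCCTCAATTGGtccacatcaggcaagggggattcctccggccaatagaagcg
A match is a description of these letters and shows no binding, and a gene without one may have it elsewhere. Among these genes, Creld2, which encodes a secreted ER stress protein, rose from 35.1 ± 3.12 to 616 ± 15.6 CPM (SD, n = 3, log2 fold change 4.13).

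The ATF4 arm rose too. Of 27 genes of the integrated stress response, 25 were called higher, 0 lower and Cebpb and Ddit4 not (median log2 fold change 2.03). Against shCon EVs the median was smaller, 1.19, with 23 of the 27 called higher and 1 lower (edgeR). Over all tested genes in that comparison 36.5% were called higher and 36.1% lower. Atf4 was at 488 ± 14.2 CPM after shCon EVs (SD, n = 3), between its levels in the other 2 groups compared. Atf4 itself stood at 284, 298 and 255 CPM in the untreated libraries and at 776, 804 and 792 CPM after CrOE EVs (log2 fold change 1.50, SE 0.061, adjusted p = 1.3e-10, edgeR). Ddit3, the gene of the stress factor CHOP, stood at 29.2, 34.5 and 28.4 CPM and at 341, 359.6 and 368 CPM (log2 fold change 3.54). Both genes had higher values in every CrOE EV library than in any untreated one. Trib3, a pseudokinase induced by ATF4 and CHOP, stood at 22.2, 31.7 and 20.3 CPM and at 299, 318 and 312 CPM. Ppp1r15a, the phosphatase subunit GADD34 that restores translation, stood at 27.8, 33.0 and 26.0 CPM and at 472, 498 and 494 CPM. Atf3, another stress factor, had a log2 fold change of 3.34, Chac1, which breaks down glutathione, 2.60. The hormone gene Fgf21 was at the floor in untreated cells, with 0.0366, 0.0762 and 0.11 CPM, and at 2.06, 2.12 and 2.36 CPM after CrOE EVs, at least 19.6-fold higher. Exons of Ddit3 and Ppp1r15a overlap a gene on the opposite strand.

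Amino acid uptake and synthesis belong to the same programme. Slc3a2, the heavy chain shared by several amino acid transporters, stood at 165, 190.1 and 156 CPM in the untreated libraries and at 2450, 2693 and 2656 CPM after CrOE EVs (log2 fold change 3.93, adjusted p = 4.6e-13, edgeR). Its partner Slc7a11, the cystine carrier, had a log2 fold change of 3.44. Asns, asparagine synthetase, stood at 100.1, 108 and 98.5 CPM and at 324, 328 and 323 CPM. All 12 genes of serine, glycine and one-carbon synthesis were called higher (median 1.35). Aldh1l2, a mitochondrial folate enzyme, had a log2 fold change of 3.46, Shmt2, which makes glycine in mitochondria, 2.20, and Phgdh, which starts serine synthesis, 1.16. Of 20 cytosolic aminoacyl-tRNA synthetases, 18 were called higher, 0 lower and Dars and Hars not (median 1.18), and their share of counts was 0.331% in untreated cells and 0.750% after CrOE EVs. Wars, the tryptophan enzyme, stood at 47.5, 56.2 and 48.6 CPM and at 342, 363 and 346 CPM, and Vars, the valine enzyme, had a log2 fold change of 1.88. Exons of Aldh1l2 and Shmt2 overlap a gene on the opposite strand. Phgdh shares over 20% of its 31-base stretches with other genes.

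**Figure D3:**
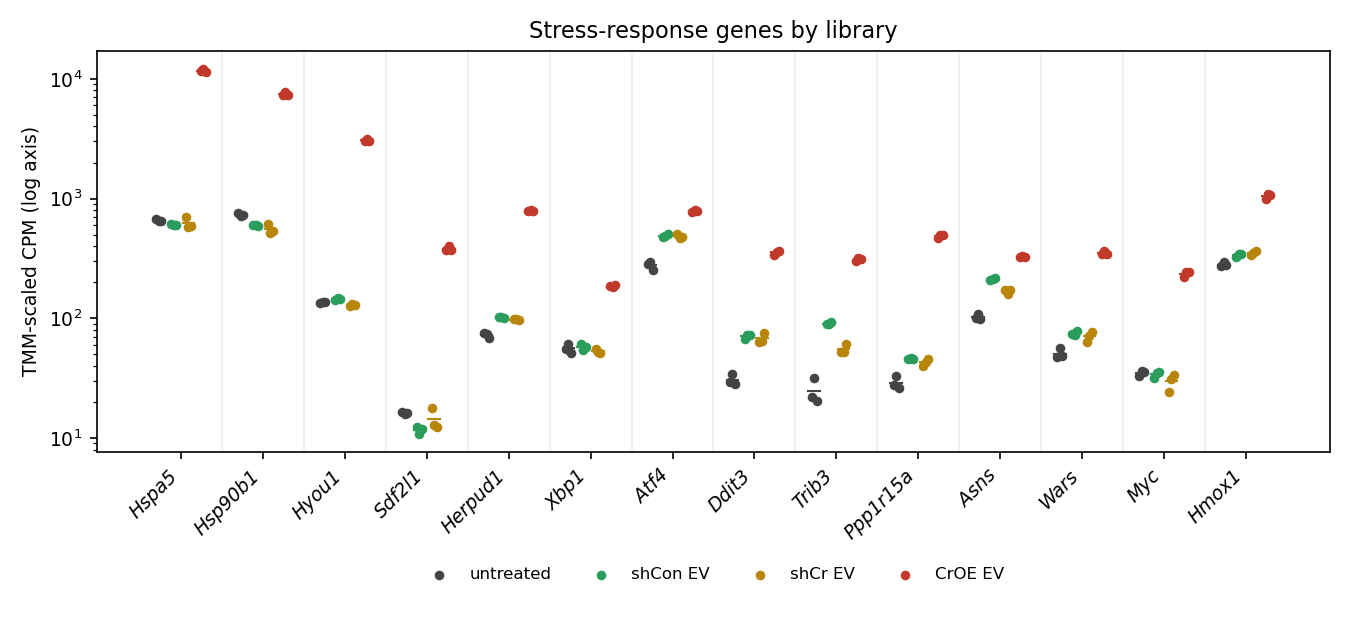
TMM-scaled CPM on a log axis of 14 genes of the stress responses, growth and heme breakdown in every library, with a point per library, a line at the group mean and a colour per group. The CrOE EV libraries lie above all others for each gene, with Hspa5 between 11400 and 12090 CPM against 647 to 674 CPM in untreated cells.

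The element through which ATF4 and its partners act, which reads TGATG, then 1 base of any kind, then AAT, was also searched on both strands. It was present for 2 of the 23 genes of the integrated stress response with an entry (Nupr1 and Fgf21), for 1 of 11 of the serine list (Pycr1) and for 2 of 13 synthetases (Aars and Gars), against 0.557% of the tested genes. The Fgf21 window, at chr7:45615571-45615650 on the - strand of GRCm38.p6, and the Gars window, at chr6:55037921-55038000 on the + strand, are shown as 1 hormone and 1 synthetase gene whose promoters hold the element. Both matches lie on the strand opposite to transcription, as the capitals show.
Fgf21: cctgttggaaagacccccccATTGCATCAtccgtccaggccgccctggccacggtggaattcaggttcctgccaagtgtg
Gars: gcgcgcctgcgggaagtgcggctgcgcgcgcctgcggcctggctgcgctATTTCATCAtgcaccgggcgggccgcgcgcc
Gars, glycyl-tRNA synthetase, had a log2 fold change of 1.41.

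Genes that build ribosomes rose with the stress genes. All 24 genes of ribosome biogenesis were called higher (median log2 fold change 1.34), and their share of counts was 0.243% in untreated cells and 0.608% after CrOE EVs. Myc, a transcription factor that drives this programme, stood at 33.0, 36.0 and 35.7 CPM in the untreated libraries and at 219.5, 245 and 242 CPM after CrOE EVs (log2 fold change 2.75, SE 0.1, adjusted p = 5.5e-11, edgeR). Ncl and Npm1, abundant nucleolar proteins, had log2 fold changes of 1.39 and 1.28, and Rrp12, which exports ribosomal subunits, 2.19. Of 79 cytosolic ribosomal protein genes, 61 were called higher and 4 lower (Rpl11, Rpl21, Rpl37a and Rps28), with a median of 0.41. Rpl12 had the largest rise among them (log2 fold change 2.70), and Rpl37a the largest fall (-0.93). Their share of counts was 3.38% to 3.71% in the untreated libraries and 4.51% to 4.81% after CrOE EVs. Many ribosomal protein genes have near-identical pseudogenes, so their counts are uncertain. Exons of Rpl12 overlap a gene on the opposite strand. Npm1 and Rpl37a share over 20% of their 31-base stretches with other genes.

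Respiratory chain genes went the other way. Of 39 nuclear genes of the respiratory chain 25 were called lower and 4, Cyc1, Cycs, Cox5a and Atp5g1, higher (median -0.34). The median against shCon EVs was smaller, -0.087, with 16 called lower and 6 higher (edgeR). Over all tested genes in that comparison 36.1% were called lower and 36.5% higher. Uqcrh, a subunit of complex III, had a log2 fold change of -1.41, and Cox6c, of complex IV, -1.15, while Cycs, the electron carrier cytochrome c, had 0.75. Of the 13 mitochondrially encoded genes 0 were called by edgeR or DESeq2, 0 had an unadjusted p under 0.05 by edgeR, and their summed share differed widely between libraries of the same group. Glycolysis and hypoxia-inducible genes were mixed, with 11 of 21 called higher and 5, Hk1, Pfkp, Pfkfb3, Pkm and Adm, lower (median 0.38). Over all genes 36.7% were called higher and 37.0% lower. Hk2, a hexokinase, and Ndrg1, a stress-responsive gene, were higher (log2 fold changes 2.00 and 2.11). Adm, the gene of the peptide adrenomedullin, was lower (-2.85), as was Pfkfb3 (-1.55), an activator of glycolysis. Exons of Cox6c and Ndrg1 overlap a gene on the opposite strand. Cycs shares over 20% of its 31-base stretches with other genes.

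Heat-shock chaperone genes, a list of cytosolic and mitochondrial members, did not rise as a block like those of the ER. Of 21, 12 were called higher and 8 lower (median log2 fold change 0.27), against 36.7% and 37.0% over all genes. Hspa1a and Hspa1b, the inducible HSP70 genes, were lower (log2 fold changes -1.23 and -1.40), as was Cryab, a small heat-shock protein (-2.43). The largest rises were those of the mitochondrial chaperones Hspa9 (1.36) and Hspd1 (1.18), which are not in the cytosol. The heat-shock element, searched in the same promoter windows as GAA, TTC and GAA with 2 bases between each, was present for 2 of the 15 genes with an entry, Hspd1 and Hspe1, against 0.421% of the tested genes. Exons of these 2 genes overlap on opposite strands, and whether both matches are the same element was not tested. Oxidative stress genes were mixed as well, with 11 of 20 targets of NRF2 called higher and 6 lower (median 0.29). Hmox1, heme oxygenase, stood at 271, 297 and 276 CPM in the untreated libraries and at 985, 1085 and 1064 CPM after CrOE EVs. Gclc, which makes glutathione, had a log2 fold change of 3.12, and the glutathione transferase gene Gsta4 3.18, while Gstm1, another transferase, had -2.25. Nqo1, often taken as the standard NRF2 target, had a log2 fold change of 0.35. Exons of Hspa1a, Cryab and Hspd1 overlap a gene on the opposite strand. Hspa1a, Hspa1b, Hspd1 and Gstm1 share over 20% of their 31-base stretches with other genes.

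Autophagy and death genes gave no single direction or were lower. Of 23 genes of autophagy and lysosomes 8 were called higher and 10 lower (median log2 fold change -0.16). These shares are near the 36.7% and 37.0% over all genes. Sqstm1, the cargo receptor p62, had a log2 fold change of 1.78 and Npc1, the lysosomal cholesterol exporter, 1.06. Tfeb, the factor that drives lysosome genes, had -2.05. Of 16 apoptosis regulators 3, Bax, Bid and Mcl1, were called higher and 11 lower (median -0.26). The pro-apoptotic genes Bbc3 and Pmaip1 were not called, with log2 fold changes of 0.085 and 0.19 and adjusted p = 0.417 and 0.458 (edgeR), and Pmaip1 was called higher without untreated replicate 1 (0.50, adjusted p = 0.0406). Bcl2l11, which encodes the death activator BIM, was lower (-0.82), as was Casp12, a caspase linked to the ER (-3.10), and the death receptor gene Fas (-1.56). Of 14 p53 targets and cell-cycle regulators 11 were called lower and 1 higher (median -0.79). The exception was Mdm2, the ubiquitin ligase of p53, at 3165, 3217 and 3138 CPM in the untreated libraries and 5103, 5261 and 5262 CPM after CrOE EVs. The p53 target Cdkn1a, the cell-cycle inhibitor p21, had a log2 fold change of -0.70. Exons of Sqstm1, Npc1, Bid and Cdkn1a overlap a gene on the opposite strand.

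Mitotic genes fell, and replication genes split. All 25 mitotic genes were called lower (median log2 fold change -1.39). Mki67, the proliferation marker, stood at 96.2, 72.2 and 98.3 CPM in the untreated libraries and at 28.3, 25.4 and 21.9 CPM after CrOE EVs. Ccnb2, a mitotic cyclin, had a log2 fold change of -2.48, and Nusap1, a spindle protein, -2.34. Of 30 replication genes 16 were called lower and 9 higher (median -0.24), against 37.0% and 36.7% over all genes. The cell cycle homology region TTTGAA, searched in the same promoter windows, was present for 7 of the 20 mitotic genes with an entry, Mki67 and Ccnb2 among them, against 12.8% of the tested genes. In the other lists its presence ranged from 0 of 12 chemokines and cytokines to 6 of 13 apoptosis regulators, so it was not particular to mitotic genes. Replication genes called higher include Cdc6 (0.95), which loads the replicative helicase at origins, and the helicase subunits Mcm2 (1.29) and Mcm7 (1.54). Those called lower include enzymes of nucleotide supply, thymidine kinase Tk1 (-2.73) and ribonucleotide reductase Rrm1 (-1.39). Ccnd1, the G1 cyclin that growth factors induce, stood at 281, 278 and 304 CPM in the untreated libraries and at 13.1, 15.4 and 13.7 CPM after CrOE EVs (log2 fold change -4.36, SE 0.072, adjusted p = 8.4e-14, edgeR). Its groups were far apart. Exons of Nusap1, Mcm7, Tk1 and Ccnd1 overlap a gene on the opposite strand. Mcm7 shares over 20% of its 31-base stretches with other genes.

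The cycle genes were also compared with shCon EVs, where 36.5% of all tested genes were called higher and 36.1% lower. Against shCon EVs, 26 of the 30 replication genes were called higher and Rrm1, Tk1 and E2f1 lower after CrOE EVs, and 15 of the 25 mitotic genes were called higher and Ccnb2, Ccna2 and Nusap1 lower (edgeR). Mki67 was at 24.3 ± 1.02 CPM after shCon EVs and 25.2 ± 3.20 after CrOE EVs (SD, n = 3, log2 fold change 0.051 and adjusted p = 0.708 against shCon EVs, edgeR). Ccnd1 was lower after CrOE EVs against both references, with 101 ± 4.97 CPM after shCon EVs and a log2 fold change of -2.85. Mki67 after CrOE EVs thus lay below its untreated level, and Ccnd1 lay below both references.

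Interferon genes fell almost without exception. Of 33 interferon-stimulated genes 32 were called lower and 0 higher (median log2 fold change -2.66), and only Oasl1 was not called. Their share of counts was 0.476% in untreated cells and 0.0797% after CrOE EVs. Ifit3, an antiviral protein gene, stood at 322, 341 and 262 CPM in the untreated libraries and at 8.50, 11.0 and 12.7 CPM after CrOE EVs (log2 fold change -4.84, SE 0.18, adjusted p = 7.1e-11, edgeR). Irf7, which amplifies the response, stood at 72.8, 96.2 and 74.6 CPM and at 4.95, 6.28 and 7.10 CPM. The groups were far apart for both genes. Isg15, a ubiquitin-like modifier, had a log2 fold change of -2.52, and Zbp1, a sensor of unusual nucleic acids, -4.67. Against shCon EVs the same list had 32 genes called lower and 0 higher (edgeR), beside 36.1% and 36.5% over all tested genes. Exons of Irf7 overlap a gene on the opposite strand. Ifit3 shares over 20% of its 31-base stretches with other genes.

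The interferon-stimulated response element reads GAAA, then 2 bases of any kind, then GAAA. In the 250 bases before the start, on either strand, it was present for 11 of the 24 interferon-stimulated genes with a promoter entry, against 3.22% of the tested genes and 2.98% of all promoters. The windows of Isg15, at chr4:156200837-156200916 on the - strand of GRCm38.p6, and Ifit3, at chr19:34583353-34583432 on the + strand, are shown because they hold several matches. The 3 matches of Isg15 overlap one another, and the 2 of Ifit3 lie on the strand opposite to transcription.
Isg15: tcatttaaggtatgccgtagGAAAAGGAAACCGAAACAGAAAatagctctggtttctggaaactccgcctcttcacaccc
Ifit3: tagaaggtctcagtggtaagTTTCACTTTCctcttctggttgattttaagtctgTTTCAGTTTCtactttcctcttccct
No binding was measured.

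Antigen presentation fell with the interferon genes. Of 12 genes of MHC class I presentation 11 were called lower and 0 higher (median log2 fold change -1.82). Psmb9 and Psmb8, subunits of the immunoproteasome, had log2 fold changes of -5.12 and -3.26, and Tap1, the peptide pump into the ER, -2.29. Among the genes of the complex itself, B2m, the light chain, had a log2 fold change of -0.52 and the heavy chain gene H2-K1 -0.37, while H2-D1 was not called (0.16, adjusted p = 0.1, edgeR) unless CrOE EV replicate 1 was left out (0.25, adjusted p = 0.00526). Exons of Psmb9, Psmb8 and Tap1 overlap a gene on the opposite strand. H2-K1 and H2-D1 share over 20% of their 31-base stretches with other genes.

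Complement and chemokine genes, which fibroblasts secrete, were mostly lower. Of the 12 complement genes 11 were tested, of which 10 were called lower, 0 higher and C2 not (median log2 fold change -4.10), and their share of counts was 0.328% in untreated cells and 0.0390% after CrOE EVs. C3, the central component, stood at 1821, 1933 and 2001 CPM in the untreated libraries and at 257, 330.3 and 314 CPM after CrOE EVs. Of 18 chemokines and cytokines 17 were tested, 12 called lower and 4 higher (median -1.40). Il33, an alarmin, had a log2 fold change of -6.80, and Cxcl12, a chemokine of stromal cells, -3.30. Those called higher were Ccl20 (3.49), Ptgs2 (1.62), Ccl5 (0.29) and Csf1 (0.24). Ptgs2 is counted in this list but encodes an enzyme, not a chemokine or cytokine. The small rises of Ccl5 and Csf1 were no calls without untreated replicate 1 (adjusted p = 0.0608 and 0.0801, edgeR), and that of Csf1 also without CrOE EV replicate 2 (0.0883) or 3 (0.0536). Ptgs2, the inducible cyclooxygenase, stood at 141, 134 and 152 CPM in the untreated libraries and at 437, 436 and 439 CPM after CrOE EVs, with no overlap. Ccl20, a chemokine, stood at 0.0732, 0.191 and 0.221 CPM and at 1.52, 1.95 and 2.08 CPM.

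Sterol genes fell together. All 25 genes of cholesterol synthesis and uptake were called lower (median log2 fold change -1.74), and their share of counts was 0.859% in untreated cells and 0.288% after CrOE EVs. Hmgcs1, an early enzyme of the pathway, stood at 727, 790.5 and 718 CPM in the untreated libraries and at 157, 182 and 169.8 CPM after CrOE EVs (log2 fold change -2.14, SE 0.069, adjusted p = 1.6e-11, edgeR). Insig1, which holds the SREBP factors in the ER, had a log2 fold change of -1.53, and Srebf2, the gene of the factor that drives this pathway, -1.05. The largest fall was that of Acat2 (-3.35). The sterol regulatory element, searched in the same promoter windows as TCAC, 1 base of any kind, then CCAC, was present for 1 of the 17 genes with an entry, Hmgcs1, against 1.28% of the tested genes. Of 12 genes of fatty acid synthesis 10 were called lower, 0 higher and Srebf1 and Me1 not (median -1.21). Srebf1, the gene of the factor that drives fatty acid synthesis, had a log2 fold change of -0.20 (adjusted p = 0.0544, edgeR) and was called lower in 6 of 15 alternatives, with an adjusted p over all 15 of 0.00948 to 0.168. Scd1, the stearoyl-CoA desaturase, stood at 649.9, 639.9 and 647 CPM and at 130.1, 144 and 137 CPM, and Acss2, which makes acetyl-CoA from acetate, at 114, 119.6 and 116 CPM and at 2.73, 3.08 and 3.48 CPM. Fasn, fatty acid synthase, had a log2 fold change of -0.28 (adjusted p = 0.012, edgeR), a call that was lost without untreated replicate 2 (adjusted p = 0.0545). Exons of Hmgcs1, Srebf1 and Acss2 overlap a gene on the opposite strand. Acat2 shares over 20% of its 31-base stretches with other genes.

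The matrix was the other large block of falls. Of the 21 collagen chains 20 were tested, of which 15 were called lower and 2, Col5a2 and Col14a1, higher (median log2 fold change -1.65), and their share of counts was 1.70% in untreated cells and 0.710% after CrOE EVs. Col6a1, a chain of the microfibrillar collagen VI, stood at 833, 844 and 879.8 CPM in the untreated libraries and at 34.0, 33.5 and 38.8 CPM after CrOE EVs (log2 fold change -4.59, SE 0.1, adjusted p = 8.6e-13, edgeR). Col1a2, of fibrillar collagen I, stood at 4941, 4773 and 5045 CPM and at 2201, 2277 and 2209 CPM. Col1a1, the other chain of collagen I, had a log2 fold change of -2.65, and Col3a1, of collagen III, -1.77. The chain genes did not all move alike. Col5a2, of collagen V, which regulates fibril size, stood at 831, 909.5 and 859.9 CPM in the untreated libraries and at 2230, 2331 and 2468 CPM after CrOE EVs, higher in each (log2 fold change 1.44), and its partner Col5a1 had -1.52. Exons of Col5a1 overlap a gene on the opposite strand.

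The enzymes that process collagen were lower, with exceptions inside the ER. Of 16, 10 were called lower and 3, P3h1, Plod3 and Serpinh1, higher (median log2 fold change -0.62). Lox, which crosslinks collagen outside the cell, had a log2 fold change of -1.29, Loxl3, of the same family, -3.11, and Pcolce, an enhancer of collagen cleavage, -3.00. P3h1, a prolyl hydroxylase, and Serpinh1, the collagen chaperone, act in the ER and were higher, with 1.15 and 0.46. Exons of Lox, Loxl3 and Pcolce overlap a gene on the opposite strand.

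Of 29 proteoglycans, matricellular and elastic fibre genes 23 were called lower and 1, Ctgf, higher (median log2 fold change -1.96), and their share of counts was 2.10% in untreated cells and 0.787% after CrOE EVs. Thbs2, a thrombospondin, stood at 2903, 2755 and 2889 CPM in the untreated libraries and at 86.7, 102 and 100.5 CPM after CrOE EVs, 29.5-fold lower. Thbs1, its relative, stood at 2278, 2413 and 2404 CPM and at 133, 157 and 161 CPM. Every CrOE EV value of both was far under the untreated ones. Dcn, the proteoglycan decorin, had a log2 fold change of -3.44, Bgn, biglycan, -1.13, Postn, periostin, -3.52, and Has2, which makes hyaluronan, -5.65. Fn1, the gene of fibronectin, was not called (log2 fold change -0.14, adjusted p = 0.0997, edgeR). Of 21 matrix proteases and inhibitors 17 were called lower and 3, Mmp11, Mmp13 and Plaur, higher (median -2.25). Mmp2, a gelatinase, had a log2 fold change of -2.36, the inhibitor Timp3 -3.97 and the plasminogen activator gene Plau -3.69. Mmp13, a collagenase, stood at 16.8, 14.1 and 14.6 CPM in the untreated libraries and at 58.1, 64.5 and 53.5 CPM after CrOE EVs (log2 fold change 1.95). Exons of Has2, Fn1 and Timp3 overlap a gene on the opposite strand.

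**Figure D4:**
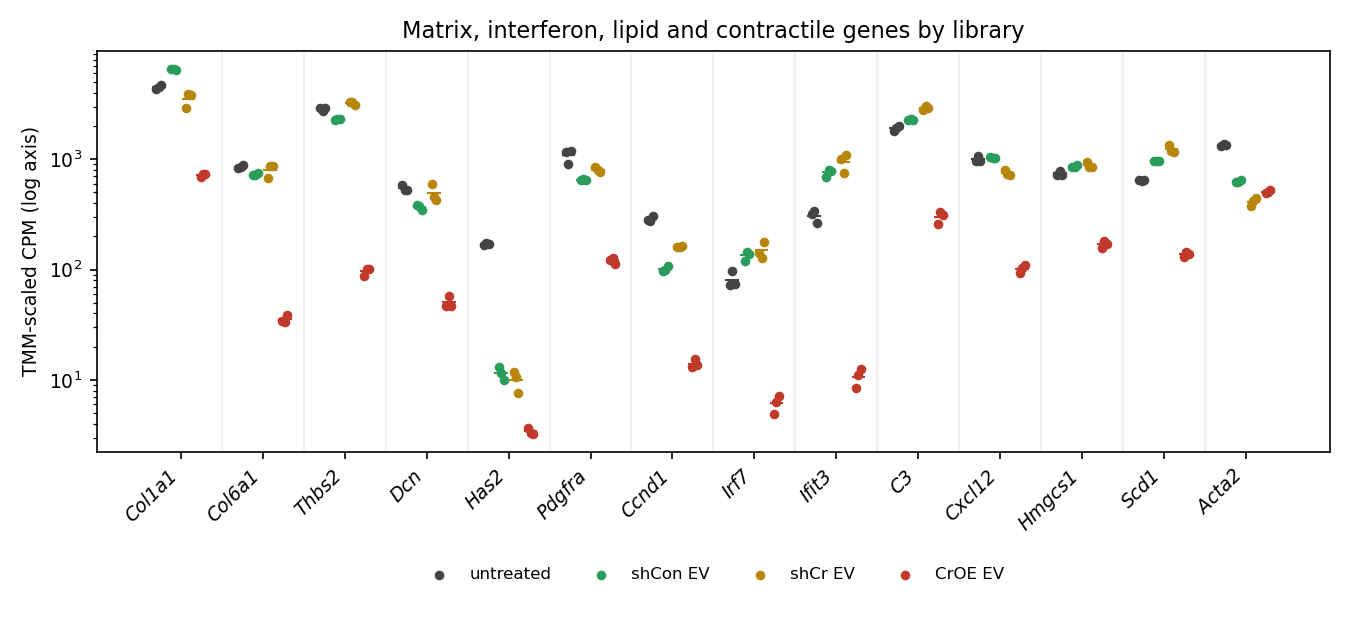
TMM-scaled CPM on a log axis of 14 genes of matrix, growth, interferon, complement, lipid synthesis and contraction in every library, with a point per library, a line at the group mean and a colour per group. The CrOE EV libraries lie lowest for every gene but Acta2, where shCon EV and CrOE EV libraries are lower than untreated ones and shCr EV libraries are lowest.

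Contractile genes fell as well. Of 18 contractile and actin-binding genes 15 were called lower, 0 higher and Myh11, Smtn and Flna not (median log2 fold change -1.52). The median against shCon EVs was smaller, -0.57, with 12 called lower and 1 higher (edgeR). Over all tested genes in that comparison 36.1% were called lower and 36.5% higher. Myl9, a myosin light chain, had a log2 fold change of -2.91, Tagln, an actin-binding protein of smooth muscle, -1.91, and Lmod1, which nucleates actin filaments, -3.50. Exons of Tagln overlap a gene on the opposite strand.

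CRIPTO is known as a co-receptor in the TGF-beta family, so that pathway was read by role. Of 33 genes of TGF-beta, activin, Nodal and BMP signalling 30 were tested, of which 21 were called lower and 5, Acvr2a, Smad2, Smad4, Smad7 and Skil, higher (median log2 fold change -1.15). The median against shCon EVs was smaller, -0.56, with 17 called lower and 8 higher (edgeR). Over all tested genes in that comparison 36.1% were called lower and 36.5% higher. Among ligands, Bmp4 was lower (-2.72), as were Tgfb1 (-1.11) and the activin chain gene Inhba (-0.34). Among receptors, Tgfbr2, of TGF-beta, was lower (-1.95). Acvr1b, the activin receptor ALK4 with which CRIPTO is known to act, stood at 48.0, 48.0 and 48.6 CPM in the untreated libraries and at 20.1, 21.7 and 21.9 CPM after CrOE EVs (log2 fold change -1.18). Among targets and feedback inhibitors the direction differed. Smad7, an inhibitor induced by TGF-beta, stood at 8.60, 9.53 and 8.90 CPM in the untreated libraries and at 24.0, 25.4 and 23.3 CPM after CrOE EVs, and Skil, another inhibitor, at 23.4, 19.9 and 22.0 CPM and at 79.4, 83.1 and 70.0 CPM. Id3, a target of BMP signals, stood at 89.1, 105 and 96.7 CPM and at 4.34, 4.71 and 4.21 CPM (log2 fold change -4.45). Fst, the activin-binding protein follistatin, had a log2 fold change of -4.97. Exons of Bmp4 and Fst overlap a gene on the opposite strand.

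Of 28 growth factor, receptor and IGF-binding genes 26 were tested, 19 called lower and 3 higher (median log2 fold change -1.55). Pdgfra, the receptor that marks fibroblasts, stood at 1153, 915 and 1180 CPM in the untreated libraries and at 122, 128 and 113 CPM after CrOE EVs (log2 fold change -3.16). Egfr, the receptor of EGF, stood at 147, 113 and 156 CPM and at 8.47, 8.12 and 8.26 CPM (log2 fold change -4.07, adjusted p = 5.1e-12, edgeR). Both were lower in every CrOE EV library than in any untreated one. Igf1, an insulin-like growth factor, had a log2 fold change of -5.61. Igfbp5, a protein that binds it, was at 3.17 ± 2.02 CPM (SD, n = 3) in untreated cells and at the floor after CrOE EVs, at least 35.6-fold lower. Hbegf, an EGF-like ligand, was higher (1.68), as was the angiogenic factor Vegfa (0.97). Exons of Pdgfra overlap a gene on the opposite strand.

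Wnt, Notch and Hedgehog genes had 18 of 23 tested members called lower and 3, Wnt9a, Lef1 and Hes1, higher (median log2 fold change -1.51). Axin2, a Wnt target, had a log2 fold change of -2.47 and Sfrp2, a secreted regulator of Wnt, -6.05. Hes1, a repressor downstream of Notch, was higher (1.97) while the receptor gene Notch3 was lower (-3.62). Immediate-early genes had 7 of 17 called higher and 8 lower (median -0.093), near the 36.7% and 37.0% over all genes. Fos, a factor that growth signals induce early, was lower (-2.39), and Ier3, an early stress gene, and the factor gene Klf4 were higher (2.20 and 1.83). Among adipogenic and lipid storage genes 7 of 11 tested were called lower and 3, Plin2, Pnpla2 and Dgat1, higher (median -1.05). Lpl, which releases fatty acids from lipoproteins, had a log2 fold change of -4.97, Pparg, the master factor of fat cells, -2.65, and Plin2, which coats lipid droplets, 1.14. Exons of Axin2, Sfrp2 and Notch3 overlap a gene on the opposite strand.

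**Figure D5:**
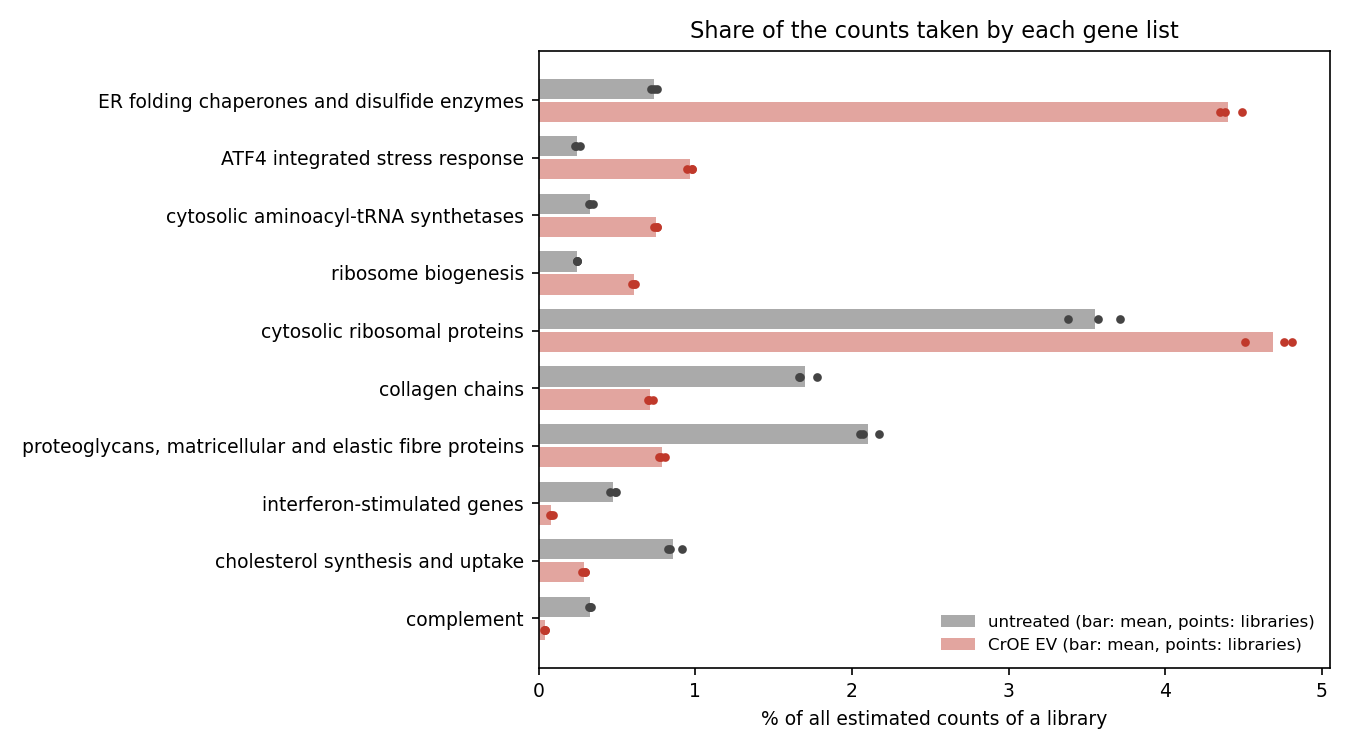
Percent of all estimated counts of a library that the members of 10 gene lists took, with a bar for the mean of 3 libraries and a point per library, untreated in grey and CrOE EV in red. The ER folding list goes from 0.737% to 4.40%, and the 2 groups do not overlap in any of the 10 lists.

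Summed shares were compared without a model, since a share uses only the counts of its own library. For 32 of the 35 pathway lists, among them the 10 drawn in the plot of shares, the groups did not overlap and the exact two-sided permutation test gave p = 0.1, the smallest that 3 libraries against 3 allow, so that no list could reach 0.05. The groups overlapped for the other 3, autophagy and lysosome (exact permutation p = 0.7), DNA replication (0.6) and mitochondrially encoded genes (0.9). Among the 10 lists drawn, the ER folding genes gained more than any of the other 9. Collagens and the other matrix genes together went from 3.80% of the counts to 1.50%.

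Marker lists of cell types were read beside these results. Of 12 fibroblast markers 11 were called lower, Fn1 was not called, and their summed share was 2.28% to 2.41% in the untreated libraries and 0.896% to 0.915% after CrOE EVs. All 11 fell at least 2-fold, the largest with a log2 fold change of -8.1, and 1 marker was at the floor in 1 group. In the untreated libraries Col1a1 stood at 4309, 4529 and 4766 CPM and in the CrOE EV libraries at 694, 732 and 737 CPM, so this marker was present in both groups. Of 12 epithelial markers, which the donor cells could bring, 4 were tested, with Krt18 and Cldn4 called higher and Krt7 lower. Their summed share was 0.000298% to 0.000398% of the counts in the untreated libraries and 0.000315% to 0.000422% after CrOE EVs, and Epcam was at 0 in both. Cldn4, an epithelial tight junction gene, was at 0 in untreated cells and at 1.15 ± 0.13 CPM (SD, n = 3) after CrOE EVs. Of 8 endothelial markers 4 were tested and called higher, with Vwf, the von Willebrand factor gene, at 1.82 ± 0.393 and 16.0 ± 1.64 CPM (SD, n = 3). Their summed share was 0.000226% to 0.000335% in the untreated libraries and 0.00175% to 0.00205% after CrOE EVs, while Cldn5 was at 0 in both. Of 9 leukocyte markers 4 were tested, 3 called lower, with a summed share of 0.00488% to 0.00602% in the untreated libraries and 0.000464% to 0.000638% after CrOE EVs, and Cd3e was at 0 in both. Of 6 adipocyte and 6 neural markers 2 and 3 were tested. Both tested adipocyte markers, Fabp4 and Lipe, were called lower, with a summed share of 0.00409% to 0.0047% in the untreated libraries and 0.00118% to 0.00129% after CrOE EVs. Among neural markers Tubb3 was called higher and Nes lower, and their summed share was 0.00229% to 0.00302% and 0.00302% to 0.00328%. The part of other cell types in the results above was not tested. Exons of Krt7 and Lipe overlap a gene on the opposite strand.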

How the data were processed

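RNA was selected by poly(A) and sequenced from directional libraries, per the labels' protocols. The deposited table gives an estimated count for each gene symbol in each library, with no scaling between them, and 39.8% of its values were not whole. The submitters' processing notes name featureCounts and the build mm39, with no role given, and the step that gave values that are not whole is not given in the sources used here. Columns were matched to samples by name, and the CrOE columns by elimination. In 27 rows a spreadsheet had turned the symbol into a date, and none of these is named.

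Values were rounded to whole counts, filtered with filterByExpr (14279 genes kept) and scaled by TMM, and all 12 libraries were fitted in 1 model with a mean per group (8 residual degrees of freedom) by edgeR 4.0.16 in R 4.3.3, with the quasi-likelihood F-test and Benjamini-Hochberg adjustment over all tested genes of a comparison. A call is an adjusted p under 0.05. The fit assumed raw counts beforehand and was kept for the rounded estimates. The test was checked on simulated counts. Totals per library were 25960054 to 35490290 in the 6 libraries compared, and floors of 3 counts per library (0.112 CPM in untreated and 0.0889 CPM in CrOE EV libraries) cover counting error only.

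The members, lists and naming rule were chosen with earlier results of these data known. Some named genes were chosen among calls whose groups did not overlap. These were the 10 largest log2 rises and falls at an average log2 CPM of 3 or more. The 8 largest rises and falls in CPM came from calls without overlap as well, at any level. Added were Tdgf1, key genes of each list by role, and the 2 largest called rises and falls of each list. In all, 311 genes were named. Single genes outside the rule that are exceptions to a count, hold a motif or mark a cell type were named after their values were seen. A few genes are counted in totals but not reported here by themselves. Exon overlaps and shared stretches come from GENCODE M21 and promoters from RefSeq (GRCm38.p6), which is not the build the notes name, so they serve only to describe the genes. Alternatives were other size factors, library totals, DESeq2 1.42.0, limma-voom (limma 3.58.1) on unrounded values, other filters, the replicate block, each library left out, a model of only the groups compared and an adjusted p under 0.01. Deviations of same-numbered libraries correlated at -0.204 to -0.0527, and those of differently numbered ones at -0.104 to 0.165. No pairing by replicate number was seen, but with 3 libraries per group this check cannot exclude one.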

Additional observations from a re-analysis of the deposited data

How the results depend on the processing

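The number of genes called stayed within 1.5 times its value for each alternative run, between 9268 and 10817 for CrOE EVs against untreated cells, where the reported count is 10524. The count with at least a 2-fold change, reported as 4245, depended more on the filter. It was 3114 with a mean of at least 50 counts and 4751 with no low-count filter. Leaving out each library in turn gave 10015 to 10311 calls, 4157 to 4276 with at least a 2-fold change, and 9702 to 9864 against shCon EVs. With the replicate block the counts were 10657, 4243 and 10511. No pairing by replicate number was seen, so the block is read as a change of model only. DESeq2 gave 10429, 4202 and 10261. No named gene changed direction. Across named genes and settings, 18 calls were lost and 13 gained, the lost ones being Tnfrsf10b, Csf1, Ccl5, Fasn and Rpl3 and the gained ones Srebf1 in 6 alternatives, Map1lc3b in 4 and Gapdh, H2-D1 and Pmaip1 in 1 each, and 20 list counts moved, by 1 or 2 genes each or, for endothelial markers with a mean of at least 50 counts, to 1. The summed share of the p53 list went from 0.563% to 0.645% over all counts, a difference of 0.082 percentage points, and from 0.255% to 0.133% (-0.12 points) without the 10 most abundant genes, because Mdm2 is among those left out. The scalings put the median log2 fold change of all genes at 0.0078 (TMM), -0.0031 (size factors) and -0.0045 (library totals). Genes at the floor have no measured fold change.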

Other observations

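Over all tested genes 36.7% were called higher and 37.0% lower. By annotated class, 13080 of the tested genes were protein-coding, with a median log2 fold change of -0.011. Of these 37.1% were called higher and 38.3% lower. The 44 long noncoding RNA genes had a median of -0.18, with 20.5% called higher and 34.1% lower. The 710 pseudogenes had a median of 0.27, with 30.6% called higher and 15.4% lower. Pseudogenes can share reads with their parent genes.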
